A study of Mus musculus with 8 samples.

Results

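Wnt ligands are secreted, lipid-modified signaling proteins, and 8 of them were followed in mouse cornea and limbus: Wnt3, Wnt4, Wnt7a, Wnt7b, Wnt10a, Wnt10b, Wnt11 and Wnt16. They were taken by symbol, leaving out Wnt2, Wnt3a, Wnt5a, Wnt5b, Wnt6 and Wnt9a, and all 8 were found among 23420 named genes. With these 8, the table lists 19 Wnt ligands. RNA was sequenced from corneal buttons, the central cornea inside the limbus, and from limbal rims, the border of cornea and sclera that houses the stem cells of the corneal epithelium. All tissue came from untreated wild type C57BL/6J mice aged 8 weeks, and the buttons as well as the rims were pooled before extraction. The labels number 4 samples per tissue, but the table rests on 1 library of each tissue, so no spread between replicates exists and no test across replicates was made. Each 95% confidence interval (CI) covers counting error only and takes reads as independent. Without molecular identifiers several reads can stem from 1 molecule, so that the intervals may be too narrow.

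A Wnt ligand is acylated by Porcn, carried to the cell surface by Wls, and bound by a Frizzled receptor together with a co-receptor such as Lrp5 or Lrp6. In the canonical branch this stabilizes β-catenin, which switches on targets with TCF/LEF factors, whereas other branches act on cell polarity and calcium. Wnt signaling takes part in forming the anterior eye, and in human corneal epithelium WNT7A has been placed upstream of PAX6, the transcription factor that maintains corneal identity.

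Wnt7a and Wnt7b, Wnt10a and Wnt10b, and Wnt3 and Wnt3a are paralogs, that is, copies of one ancestral gene, and a short read could be assigned to the wrong copy if they were alike over its length. Coding sequences of GENCODE M21 were therefore aligned. They were identical at 74.7% of aligned positions for Wnt7a and Wnt7b, at 62.6% for Wnt10a and Wnt10b and at 76.8% for Wnt3 and Wnt3a. The most alike stretch of 75 bases, the read length of the study, is shown for each pair because a read would be hardest to place there. Capitals mark the bases that differ, 6 for the Wnt7 pair, 12 for the Wnt10 pair and 6 for the Wnt3 pair.
Wnt7a: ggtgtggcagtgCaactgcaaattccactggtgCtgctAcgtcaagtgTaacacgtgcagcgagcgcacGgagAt
Wnt7b: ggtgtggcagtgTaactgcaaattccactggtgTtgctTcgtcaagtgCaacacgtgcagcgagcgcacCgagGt
Wnt10a: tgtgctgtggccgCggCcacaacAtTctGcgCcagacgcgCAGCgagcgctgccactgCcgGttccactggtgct
Wnt10b: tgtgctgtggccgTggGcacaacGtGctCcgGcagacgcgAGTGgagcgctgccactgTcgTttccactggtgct
Wnt3: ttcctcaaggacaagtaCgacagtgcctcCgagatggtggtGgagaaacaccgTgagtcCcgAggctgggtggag
Wnt3a: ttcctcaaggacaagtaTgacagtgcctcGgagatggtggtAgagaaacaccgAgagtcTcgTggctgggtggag

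No run of 75 bases was shared by transcripts of these pairs, nor in any of the 144 pairings of 1 of the 8 ligands with another Wnt ligand, so that no read of full length could match both copies exactly. The table also gives an accession beside each symbol, but of 18029 accessions compared only 2 belonged to the gene named, and genes were identified by symbol alone.

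The libraries carried the markers of their labelled tissues and of neighboring ones. On named genes there were 26104317 corneal and 21182025 limbal reads. Krt12, the keratin of corneal epithelium, had 1137735 corneal and 233324 limbal reads, and Krt15, a basal limbal keratin, had 37738 and 353826. Beyond counting error, 5 of 6 corneal epithelium markers were higher in the cornea, and 5 of 6 limbal and basal epithelium markers in the limbus. The remaining marker of each list went the other way beyond counting error. Clu, of the corneal list, had 6544 corneal and 11359 limbal reads, and Trp63, of the limbal and basal list, had 8737 and 3929. Of all 13862 genes with enough reads, 40.6% were higher in the cornea and 33.2% in the limbus beyond counting error. Markers of other tissues also differed, mostly toward the limbus, with summed corneal and limbal reads of 96866 and 292033 for conjunctival epithelium, 89 and 10052 for skeletal muscle, 231 and 2193 for vessels, 759 and 5409 for leukocytes, 316 and 1590 for melanocytes, 5026 and 7789 for Schwann cells, 576 and 5250 for photoreceptors, 1019 and 8116 for lens, and 2870 and 7167 for corneal endothelium. Of the conjunctival markers, the goblet cell mucin Muc5ac had 1 read in each library. Keratocyte markers summed to 33588 and 16376. Beyond counting error, 3 of these 5 were higher in the cornea and 1, Ptgds with 186 and 1950 reads, in the limbus. Epidermal markers, 4 of them, summed to 367 and 446. The part of these tissues in the Wnt values was not tested.

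The 8 ligands fell into 4 that were abundant in both tissues and 4 at or near the limit of detection. Wnt4, Wnt7b, Wnt10a and Wnt11 were each found with at least 430 reads per library. Wnt7a, Wnt3, Wnt16 and Wnt10b were each found with at most 5. No read in the cornea stood under the symbol of Wnt7a, the ligand tied to corneal identity in human cells. Since most accessions belong to other genes than the symbols beside them, this value, like all others, holds only if the symbols are right, which the table alone cannot show for a single gene.

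**Figure D1:**
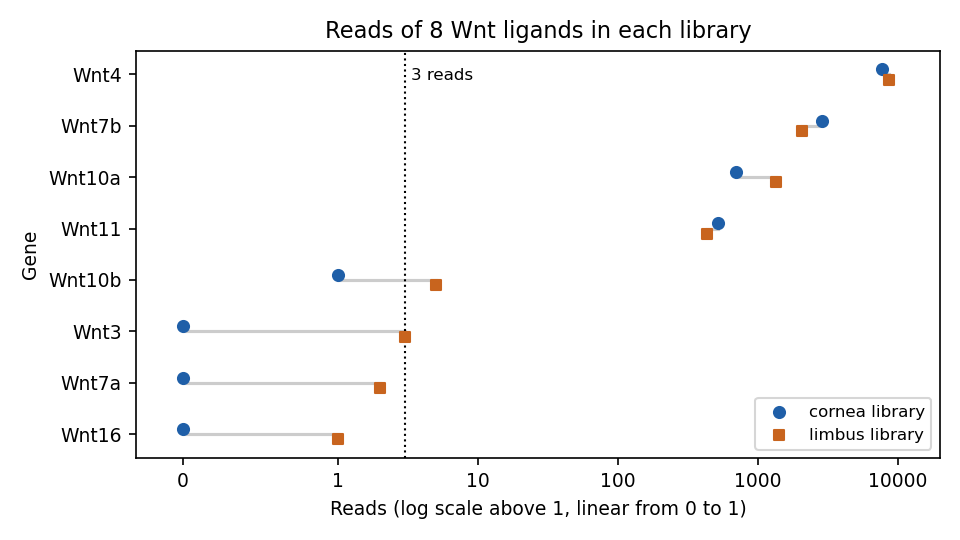
Reads of each of the 8 Wnt ligands in the cornea library (circles) and the limbus library (squares), on an axis that is logarithmic above 1 read and linear from 0 to 1, with a dotted line at 3 reads. Wnt4, Wnt7b, Wnt10a and Wnt11 lie between 430 and 8718 reads, while Wnt3, Wnt7a and Wnt16 lie at 0 in the cornea and at 3 reads or fewer in the limbus.

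Wnt7a, which patterns limbs and the female tract (chromosome 6, 91363981 to 91411363, minus strand of GRCm38), was without reads in the cornea (0) and had 2 in the limbus. A count of 0 allows up to 3 reads, so that neither library exceeded this limit and no fold between the tissues is given. Its paralog Wnt7b, a ligand of lung and kidney development, was found with 2876 corneal and 2084 limbal reads. Per kilobase of exon, and with Wnt7a set to 3 corneal reads and Wnt7b at its measured level, Wnt7b was at least 621-fold higher than Wnt7a in the cornea. In the limbus the ratio of their levels, from 2 reads of Wnt7a as counted, was 675 (95% CI 187 to 5576). The most alike stretch of this pair, shown above, differs at 6 bases. Pax6 itself was found with 18145 corneal and 10507 limbal reads, at a log2 ratio, cornea over limbus, of 0.69 (95% CI 0.66 to 0.73).

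Wnt3, a β-catenin ligand of gut and embryo (chromosome 11, 103774150 to 103817957), was at 0 corneal and 3 limbal reads. Wnt16, known for its role in cortical bone (chromosome 6, 22288227 to 22298522), was at 0 and 1. Neither gene exceeded the limit of 3 reads in a library, and no difference could be seen at this depth. Wnt10b, which favors bone over fat formation (chromosome 15, 98770712 to 98778150), was at 1 corneal and 5 limbal reads, and the interval of its log2 ratio of -2.42 ran from -7.98 to 0.74.

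As for the Wnt7 pair, 1 copy of the Wnt10 and Wnt3 pairs made up nearly all reads. The level of Wnt10a over that of Wnt10b was 955 (95% CI 171 to 37773) in the cornea, from 1 read of Wnt10b as counted, and 372 (159 to 1148) in the limbus. Wnt3a, with 497 corneal and 243 limbal reads, was at least 185-fold higher than Wnt3 in the cornea, where Wnt3 was set to 3 reads. The ratio of their limbal levels was 90.2 (95% CI 30.5 to 441). Wnt3 and Wnt10b thus stood low beside their paralogs in both tissues.

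Promoter sequences from RefSeq (GRCm38.p6) were matched for 6 of the 8 ligands, with 7 start sites, and Wnt7b and Wnt10a were not among them. Wnt7a is shown as a ligand without corneal reads and Wnt11 as an abundant one, each by the 250 bases before the start with CpG dinucleotides in capitals. The Wnt7a stretch lies at chr6:91411354-91411603 on the minus strand, of which 10 bases fall in the first exon of GENCODE, and the Wnt11 stretch lies at chr7:98834862-98835111 on the plus strand.
Wnt7a: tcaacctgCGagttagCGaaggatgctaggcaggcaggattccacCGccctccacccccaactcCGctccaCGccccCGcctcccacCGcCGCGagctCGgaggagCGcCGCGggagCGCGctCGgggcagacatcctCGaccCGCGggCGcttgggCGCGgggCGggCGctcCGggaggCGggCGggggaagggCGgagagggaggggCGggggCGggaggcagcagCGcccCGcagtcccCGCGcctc
Wnt11: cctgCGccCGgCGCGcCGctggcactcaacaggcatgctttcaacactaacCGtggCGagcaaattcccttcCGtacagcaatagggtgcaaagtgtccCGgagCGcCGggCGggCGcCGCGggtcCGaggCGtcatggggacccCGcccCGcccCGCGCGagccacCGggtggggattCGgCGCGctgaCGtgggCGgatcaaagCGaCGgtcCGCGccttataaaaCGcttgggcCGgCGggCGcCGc

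The Wnt7a stretch held 34 CpG dinucleotides and that of Wnt11 37, against a median of 6 over 32851 promoters of the same length. Wnt4 had 44, the other start of Wnt11 had 16, and the weak ligands Wnt3, Wnt10b and Wnt16 had 22, 14 and 9. Wnt4 and Wnt11 thus held the highest counts of the matched ligands at 1 start each, Wnt11 with 37 against 34 for Wnt7a. The other Wnt11 start had fewer than Wnt7a and Wnt3. The abundant ligands Wnt7b and Wnt10a were not matched, so these counts show no link to abundance. The letters CTTTGAT, a core TCF/LEF motif, were searched on both strands. They lay before 1 of the 2 Wnt11 starts, the one shown, and before no other matched start, and 3.21% of all promoters held them.

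Wnt10a, a β-catenin ligand of teeth, hair and stratified epithelia (chromosome 1, 74791516 to 74804179), differed most between the tissues among the 4 abundant ligands and was higher in the limbus. It was found with 693 corneal and 1350 limbal reads. Dividing by the size factors of the libraries (1.03, cornea; 0.967, limbus) gave 670 and 1396 normalized reads, a log2 ratio of -1.06 (95% CI -1.19 to -0.92) and thus 2.08-fold more in the limbus. The interval of the fold, 1.90 to 2.28, includes 2. In pooled tissue, fewer cells that make a transcript and less transcript per cell cannot be told apart. Wnt10a was the 1 ligand past 2-fold of the 4 with over 3 reads in each library. Of all 13862 genes with that many reads, 24.4% were past 2-fold, 15.5% toward the limbus and 8.99% toward the cornea.

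Wnt4, which directs kidney tubule and female tract development (chromosome 4, 137277489 to 137299726), was the most abundant of the ligands and slightly higher in the limbus. Its 7689 corneal and 8718 limbal reads came to 7438 and 9012 after normalization. The log2 ratio of -0.28 (95% CI -0.32 to -0.23) amounts to 1.21-fold. Fewer reads than for Wnt4 were found for 98.1% of named genes in the cornea and for 98.7% in the limbus.

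Wnt7b (chromosome 15, 85535437 to 85582473) was the 1 ligand of the 8 that was higher in the cornea beyond counting error. Its reads became 2782 in the cornea and 2154 in the limbus after normalization, 1.29-fold apart at a log2 ratio of 0.37 (95% CI 0.29 to 0.45). The antisense gene AU022754 overlaps Wnt7b. The libraries were made with a kit that keeps the strand, but whether reads were counted by strand is not given in the sources used here.

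Wnt11, a ligand of cell movement and kidney branching (chromosome 7, 98835112 to 98855195), was found with 516 corneal and 430 limbal reads, 499 and 445 once normalized. The interval of its log2 ratio of 0.17 ran from -0.020 to 0.36, so that this depth did not show a difference. A processed pseudogene on the opposite strand, Gm8398, overlaps it. Of the 4 abundant ligands, 3 differed beyond counting error, 2 toward the limbus and 1 toward the cornea, and so did 73.7% of all 13862 genes. Scaled to total reads instead, every log2 ratio fell by 0.21, which left Wnt7b at 0.16 and turned Wnt11 to -0.038.

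**Figure D2:**
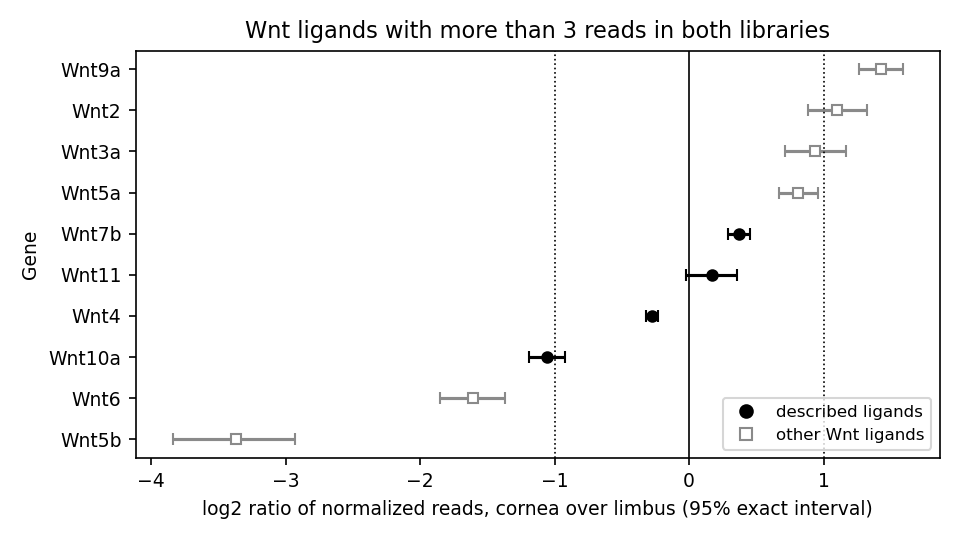
Log2 ratio of normalized reads, cornea over limbus, with exact 95% intervals for the 10 Wnt ligands with more than 3 reads in both libraries, with dotted lines at 2-fold. The 4 described ligands (filled circles), from -1.06 for Wnt10a to 0.37 for Wnt7b, lie between the other ligands (open squares), which reach -3.37 for Wnt5b and 1.43 for Wnt9a.

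The intervals of Wnt10a, Wnt4 and Wnt7b lay apart from each other, whereas those of Wnt11 and Wnt7b overlapped. Within the whole family, these 4 ligands occupied the middle of the range. Wnt5b and Wnt6 had log2 ratios below that of Wnt10a, and Wnt5a, Wnt3a, Wnt2 and Wnt9a had ratios above that of Wnt7b. Past 2-fold were 4 of these 6, Wnt5b and Wnt6 toward the limbus and Wnt2 and Wnt9a toward the cornea. Of the 5 remaining ligands, Wnt2b was at 0 corneal and 30 limbal reads, and Wnt1, Wnt8a, Wnt8b and Wnt9b were listed at 0. Summed over the 8 described ligands there were 11775 corneal and 12593 limbal reads, a log2 ratio of -0.19 (95% CI -0.23 to -0.16). Most of these were reads of Wnt4, 7689 corneal and 8718 limbal, so that the summed ratio largely reflects Wnt4. The 11 others summed to 3581 and 2518 at a log2 ratio of 0.41 (95% CI 0.34 to 0.49).

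Levels of different ligands were compared as normalized reads per kilobase of annotated exon. In the cornea Wnt4 stood at 1773 (95% CI 1734 to 1814), Wnt7b at 568 (547 to 589), Wnt10a at 272 (252 to 293) and Wnt11 at 121 (110 to 132). In the limbus Wnt4 stood at 2149 (2104 to 2194), Wnt10a at 565 (536 to 596), Wnt7b at 440 (421 to 459) and Wnt11 at 107 (97.5 to 118). No neighbors in either order had overlapping intervals, and Wnt7b and Wnt10a held opposite places in the tissues. The level of Wnt7b over that of Wnt10a was 2.09 (95% CI 1.92 to 2.28) in the cornea and 0.778 (0.726 to 0.834) in the limbus. The limbal order rests on the exon length, because with the longest transcript as the length Wnt7b stood at 634 and Wnt10a at 565. The 4 weak ligands stood at 1.52 or less in either tissue and could not be ordered.

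Wnt4 supplied about as much ligand transcript as the rest of the family together. Of the summed per-kilobase level of all 19 Wnt ligands, it made up 47.6% (cornea) and 52.2% (limbus). Wnt7b came to 15.2% and 10.7%, Wnt10a to 7.28% and 13.7%, and Wnt11 to 3.24% and 2.61%, corneal share first. The 8 ligands together held 73.3% of the total in the cornea and 79.3% in the limbus. These shares are taken within a library and do not depend on the size factors.

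**Figure D3:**
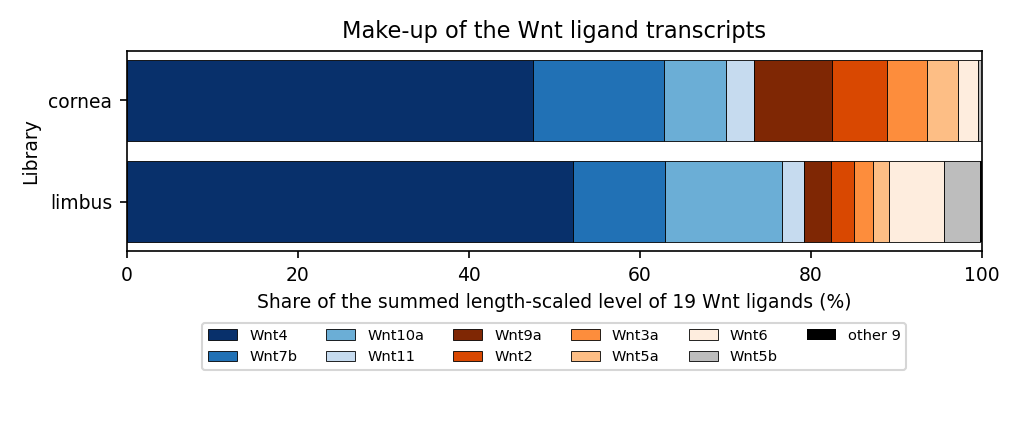
Share in percent of each Wnt ligand in the summed length-scaled level of all 19 Wnt ligands, as stacked bars for the cornea library and the limbus library. Wnt4 fills 47.6% of the cornea bar and 52.2% of the limbus bar, the Wnt10a segment is wider in the limbus, and the Wnt7b segment is wider in the cornea.

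Among the 8 ligands, 3 lie beside another Wnt gene with no protein-coding gene between them. Wnt10a lies 6.19 kb from Wnt6, and both were higher in the limbus, with log2 ratios of -1.06 and -1.61 (95% CI -1.85 to -1.37). Wnt3 lies 24.3 kb from Wnt9b on chromosome 11, and Wnt10b lies 11.7 kb from Wnt1 on chromosome 15. In these pairs both genes were low throughout, since Wnt9b and Wnt1 were listed at 0 and Wnt3 and Wnt10b had at most 5 reads. The family holds 1 more such pair, Wnt3a and Wnt9a, both higher in the cornea, with log2 ratios of 0.94 and 1.43. The neighbors were examined after their values were known, and the direction shared by the genes of the Wnt10a and Wnt9a pairs is a description only.

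Transcripts for making and receiving Wnt ligands were present in both tissues. Wls, the carrier of acylated Wnt proteins, was found with 3896 corneal and 2994 limbal reads (log2 ratio 0.28, 95% CI 0.22 to 0.35). Porcn, the acyltransferase, was found with 435 and 475 (log2 ratio -0.22, 95% CI -0.41 to -0.032), and Notum, a secreted enzyme that removes the acyl group, with 22 and 54 (log2 ratio -1.39, 95% CI -2.18 to -0.65). Wls was thus higher in the cornea, and Porcn and Notum in the limbus.

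Reck and Adgra2, which together make cells responsive to Wnt7a and Wnt7b, were higher in the limbus, whereas Wnt7b was higher in the cornea. Reck was found with 19 corneal and 279 limbal reads (log2 ratio -3.97, 95% CI -4.73 to -3.30), and Adgra2 with 143 and 583 (log2 ratio -2.12, 95% CI -2.40 to -1.86). Both are also known from vessels, whose markers summed to 231 and 2193 reads, and the part of vessels in these values was not tested. Beyond counting error, 4 of 8 co-receptors were higher in the limbus, and 1, Lrp6, was higher in the cornea, where all genes gave 33.2% toward the limbus and 40.6% toward the cornea.

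The counts of the other lists are to be read against the same background of 33.2% toward the limbus and 40.6% toward the cornea. Of 10 Frizzled receptors, 9 had more than 3 reads per library, and of these 6 differed beyond counting error toward the limbus and 3 toward the cornea, the latter a share near the background. Fzd3 was at a log2 ratio of -1.96 and Fzd4 at 1.66. Fzd6, the Frizzled gene with the most reads, had 4586 corneal and 1844 limbal reads, at a log2 ratio of 1.22. Among 12 secreted antagonists, 7 had enough reads. Of these, 5 were higher in the limbus, led by Sfrp2 with 28 corneal and 681 limbal reads. The 2 higher in the cornea were Dkk3, with 8883 and 3503 reads, and Dkk2, with 1494 and 870. Summed over the 12 antagonists there were 14901 corneal and 10302 limbal reads, more in the cornea. This excess rested on Dkk3, and without it the sum lay toward the limbus. In the R-spondin axis, which regulates Frizzled receptors at the cell surface, 3 of 9 genes had enough reads, among them Lgr4 at 0.17 and Rnf43 at -0.42. The limit on reads leaves out genes that were near 0 in the cornea and present in the limbus. In the R-spondin axis these were Rspo1 with 0 corneal and 37 limbal reads, Lgr6 with 1 and 24, Rspo3 with 0 and 8 and Lgr5 with 0 and 6, and the intervals of all of them lay on the limbal side. The same held for the antagonists Sfrp4 and Sfrp5, with 0 and 24 reads each, and for Fzd9, with 0 and 9. Of 10 genes of the β-catenin destruction complex and its transducers, 5 differed beyond counting error toward the cornea, a share near the background, and 1 toward the limbus, and their median log2 ratio of 0.10 turned to -0.11 under scaling to total reads. Of 4 TCF/LEF factors, Tcf7 and Tcf7l1 were higher in the limbus, with log2 ratios of -1.27 and -0.39, and 0 were higher in the cornea. Of 6 planar polarity genes, 2 were higher in the cornea, Prickle2 foremost at 2.10, and Prickle1 was higher in the limbus at -1.06.

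The target and feedback genes of β-catenin lay toward the limbus. Of 11 in the table, 9 had more than 3 reads per library, and beyond counting error 7 of these lay toward the limbus and 0 toward the cornea. Nkd2, a feedback inhibitor, was found with 9 corneal and 423 limbal reads (log2 ratio -5.65, 95% CI -6.79 to -4.71), and Axin2, a common readout of the pathway, with 106 and 432 (log2 ratio -2.12, 95% CI -2.44 to -1.81). Their median log2 ratio was -1.29, against -0.055 for the 4 abundant ligands and 0.055 for all genes. The list shares genes with those of secretion, secreted antagonists, the R-spondin axis and TCF/LEF factors. Axin2, Pax6, Porcn, Muc5ac, Rspo1, Rspo3, Lgr5, Lgr6, Sfrp4, Sfrp5 and Fzd9 were singled out after their values were seen. So were Trp63, Clu, Ptgds, Dkk1, Dkk2, Dkk3 and Fzd6.

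**Figure D4:**
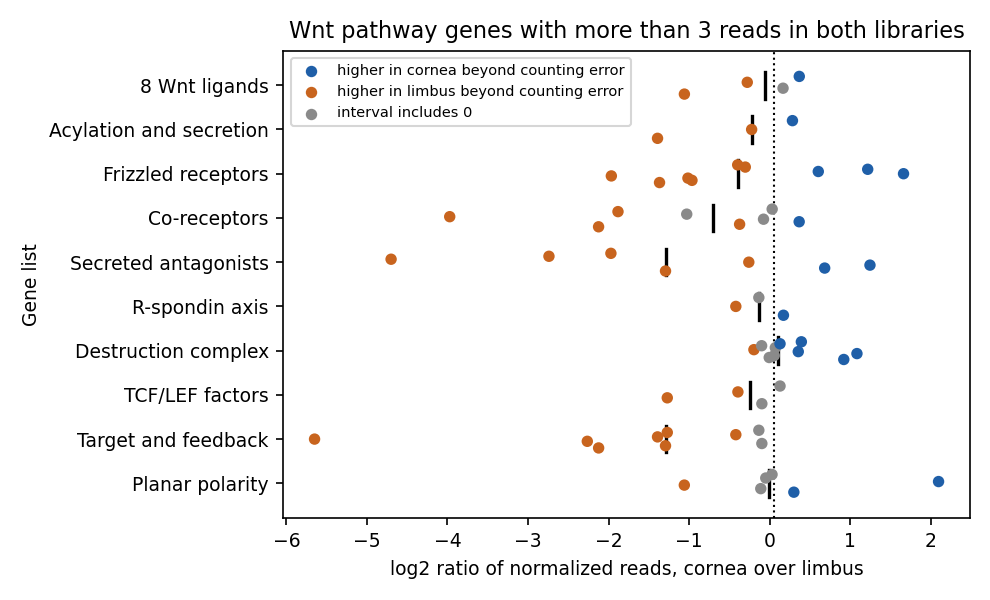
Log2 ratio of normalized reads, cornea over limbus, of each Wnt pathway gene with more than 3 reads in both libraries, by gene list, with the list median as a short bar and the median of all genes as a dotted line; blue, orange and gray points are genes higher in the cornea, higher in the limbus and with an interval that includes 0. The 4 of the 8 Wnt ligands that are drawn have a median of -0.055, while the target and feedback genes and the secreted antagonists have a median of -1.29. Both of the latter medians are the value of Dkk1, which is in both lists and had 24 corneal and 55 limbal reads.

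Among all listed genes with at least 50 reads over both libraries, those nearest in log2 ratio were Slc4a4 (-0.26) and Sfrp1 (-0.26) for Wnt4, Lrp6 (0.37) and Ctnnb1 (0.36) for Wnt7b, Prickle1 (-1.06) and Fzd2 (-1.01) for Wnt10a, and Lgr4 (0.17) and Tcf7l2 (0.13) for Wnt11. With 1 library per tissue this likeness rests on 1 ratio per gene.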

How the data were processed

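RNA of mouse corneal buttons and limbal rims was sequenced. Per the methods, adaptors were trimmed and reads mapped to GRCm38 (mm10) in CLC Genomics Workbench. The authors deposited 1 table with a mean normalized signal per gene and a log2 fold change, its error and p-values, none of which is given here as a result. By a note in it, negative values are higher in the limbus. Each mean was resolved into reads of 2 libraries, as 109 corneal reads weigh as much as 102 limbal reads. The mean alone fixed the reads of the 4 weak ligands. For Wnt11, Wnt10a, Wnt7b and Wnt4 it allowed 9, 20, 47 and 156 pairs of reads, and the pair nearest to the deposited fold change and its error was taken, which met that error to within 1.19e-05 where the next best pair missed by at least 0.00039. On simulated data the reads of all 17055 genes were recovered. The simulation used the same model and size factors as the decoding, so it cannot show that the deposited values arose this way. Reads are thus derived values, not a count table, and 17484 rows without a gene name were left out.

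No fold is given for a gene at or under 3 reads in both libraries. A difference is beyond counting error where the exact Clopper-Pearson interval of the log2 ratio leaves out 0, and intervals of levels are exact Poisson intervals. Genes named are the 8 ligands, other Wnt ligands with at least 50 reads, up to 2 genes per pathway list by size of log2 ratio, the marker with the most reads where a cell list needs one, and the 2 listed genes nearest in ratio to each ligand. Weaker Wnt ligands were added to account for the family. The ligands and lists were chosen with earlier results of these data known. Lengths and positions are from GENCODE M21 (GRCm38). Alternatives were scaling to total reads, a trimmed mean of M-values, a pseudocount of 1, limits on reads, the length used and all read pairs that the mean allows. Python 3.11.15, numpy 2.4.6, scipy 1.17.1 and Biopython 1.88 were used.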

Additional observations from a re-analysis of the deposited data

How the results depend on the processing

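With 1 library per tissue, no value has a replicate check and leaving out a library was not possible. No paired analysis was possible because the columns carry no replicate numbers, and count tests over samples were not run for the same reason. Scaling to total reads moved the log2 ratio of Wnt4 to -0.48, of Wnt7b to 0.16, of Wnt10a to -1.26 and of Wnt11 to -0.038, while the trimmed mean of M-values and a pseudocount of 1 kept all 4 within their intervals. Over all read pairs that the deposited mean alone allows, the log2 ratio could lie between -8.17 and 8.37 for Wnt4, -6.91 and 6.75 for Wnt7b, -5.75 and 6.36 for Wnt10a and -3.48 and 5.34 for Wnt11, so that their directions rest on the deposited fold change and its error. With no limit on low reads and a pseudocount of 1, 5 ligands in place of 1 were past 2-fold. With the longest transcript as the length, 12 of 16 levels and shares moved beyond counting error. Depth limits the 4 weak ligands. A count of 0, as for Wnt3, Wnt7a and Wnt16 in the cornea, allows up to 3 reads.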
